A study of Mus musculus with 4 samples.

Results

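The Zfp36 and Zc3h12 (Regnase) gene families encode CCCH zinc finger proteins that shorten the life of inflammatory messenger RNAs. Their 7 genes, Zfp36, Zfp36l1, Zfp36l2, Zc3h12a, Zc3h12b, Zc3h12c and Zc3h12d, were followed among 22180 genes measured in a B16-OVA culture, B16 being a pigmented melanoma of mice and OVA its added ovalbumin gene. The genes were chosen by family symbol in the platform annotation, with the log2 levels of these same 4 arrays already known. Their values in the comparison are therefore a description, without a test. All 7 were measured, by 8 probes, since Zfp36l1 had a pair of them.

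Transfection lasted 6 hours and used Lipofectamine 2000, a lipid reagent for bringing DNA across the cell membrane. One group was mock transfected (2 arrays) and the other was transfected with AT90ES (2 arrays), and the labels give the same treatment text, a 90mer double-stranded DNA, for all 4 arrays, mock included. They do not say whether or how the mock cells' transfection differed in its DNA, so a response to the DNA and one to the procedure cannot be told apart. Nothing in the labels says that the replicates came from separate cultures, so errors and p-values cover the spread between arrays alone, and that spread may be technical. In a bulk sample, fewer expressing cells and less RNA per cell cannot be told apart.

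Zfp36 (tristetraprolin) and its paralogs Zfp36l1 and Zfp36l2 bind AU-rich elements in the untranslated tail of cytokine and early response mRNAs and bring in the CCR4-NOT complex, which removes the poly(A) tail. Zc3h12a (Regnase-1) is an endoribonuclease that cuts stem-loops in mRNAs such as that of interleukin 6, with the helicase Upf1 as a partner, and Zc3h12b, Zc3h12c and Zc3h12d carry the same nuclease domain. In immune cells Zfp36 and Zc3h12a are induced by the inflammatory signals that they then damp, and Zfp36 is also a classical early gene of serum-stimulated fibroblasts.

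The promoters of 3 genes are shown because they belong to the 2 members with the largest differences, Zfp36 and Zfp36l1, and to Zc3h12a, whose level differed least. Each is the 250 bases before the RefSeq start, build GRCm38.p6, minus strand, read 5′ to 3′. They lie at chr7:28379229-28379478 (Zfp36), chr12:80113014-80113263 (Zfp36l1) and chr4:125127882-125128131 (Zc3h12a). Capitals mark the motif matches described next.
Zfp36: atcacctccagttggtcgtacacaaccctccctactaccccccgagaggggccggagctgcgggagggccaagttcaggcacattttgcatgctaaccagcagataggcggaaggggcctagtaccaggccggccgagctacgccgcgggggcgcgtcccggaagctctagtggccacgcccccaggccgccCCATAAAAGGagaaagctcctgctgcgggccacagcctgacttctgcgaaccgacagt
Zfp36l1: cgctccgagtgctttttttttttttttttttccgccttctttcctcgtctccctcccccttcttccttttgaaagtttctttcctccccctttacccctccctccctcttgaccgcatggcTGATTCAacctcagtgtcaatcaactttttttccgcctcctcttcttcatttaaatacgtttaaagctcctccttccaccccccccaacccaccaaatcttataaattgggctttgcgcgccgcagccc
Zc3h12a: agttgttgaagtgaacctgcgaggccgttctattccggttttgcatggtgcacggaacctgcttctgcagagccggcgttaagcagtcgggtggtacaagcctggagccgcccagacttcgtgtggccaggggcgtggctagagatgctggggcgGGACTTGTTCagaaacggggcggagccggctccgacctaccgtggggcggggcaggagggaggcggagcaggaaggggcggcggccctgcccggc

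A set of 5 motifs was searched on both strands of this window. They were the NF-kappaB consensus, the CArG box of serum response factor, the p53 half-site, the interferon-stimulated response element and AP-1. The AP-1 pattern was a relaxed one, TGANTCA, with the central base left free. No match overlapped another in the printed sequences. The Zfp36 window held a CArG box, CCATAAAAGG, from 58 to 49 bases before the start, a motif found in 1.47% of 32851 mouse promoters of the same length. The Zfp36l1 window matched this relaxed AP-1 pattern, with TGATTCA from 129 to 123 bases before the start. The relaxed pattern was found in 6.75% of promoters, and a stricter AP-1 site was not searched. The Zc3h12a window held a p53 half-site, GGACTTGTTC, from 95 to 86 bases before the start, found in 7.13%. None of these 3 windows matched the NF-kappaB consensus (7.25% of promoters) or the interferon-stimulated response element (1.85%). Among the 6 members with a promoter sequence, 1 NF-kappaB match was found, at 1 of the 2 starts of Zc3h12c. A match describes letters in the window and not binding.

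Across the arrays, the Zfp36 family genes stood higher in AT90ES cells, with the largest difference for Zfp36 itself. The Regnase genes were mixed: Zc3h12a had about the same level in both groups, Zc3h12c and Zc3h12d stood slightly higher and Zc3h12b varied within its groups. Levels are log2 RMA values of a probe and are compared only between arrays, since probes differ in efficiency. Background was set at the 95th percentile of the 1105 olfactory receptor genes on the array, which melanoma cells are assumed not to express, and lay between 4.85 and 5.07 on the 4 arrays. All 7 members lay above it on each array, Zc3h12d by the smallest margin.

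Zfp36 had log2 levels of 6.16 and 6.13 on the mock arrays and of 7.27 and 7.24 on the AT90ES arrays. Both AT90ES arrays lay 1.07 or more above both mock arrays, while arrays of a group lay 0.03 apart. The group means were 6.15 ± 0.02 and 7.25 ± 0.02 (SD, n = 2 arrays), a log2 difference of 1.11 ± 0.11 (SE of the limma fit) or 2.15-fold. Of all genes, 91 had a larger positive difference. In every setting tried the log2 difference of Zfp36 stayed between 1.05 and 1.13.

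Zfp36l1, a paralog with a role in lymphocyte development, had levels of 9.25 and 9.27 in mock and of 10.02 and 10.07 in AT90ES cells. Its log2 difference was 0.78 ± 0.11 (SE), or 1.72-fold, and the groups lay 0.76 apart at their nearest arrays. The second probe of Zfp36l1 was dimmer, with levels of 5.79 and 6.05 in mock and of 6.59 and 7.19 in AT90ES cells. Its log2 difference was 0.97 ± 0.25 (SE). The probes therefore had the same direction, and the dimmer one scattered more within each group.

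Zfp36l2, a paralog that acts in female fertility and in lymphocyte development, had levels of 8.60 and 8.60 in mock and of 8.84 and 9.00 in AT90ES cells. The mock arrays agreed to 0.0020 while the AT90ES arrays lay 0.15 apart, and the nearest arrays of the groups lay 0.24 apart. The log2 difference of Zfp36l2 was 0.32 ± 0.12 (SE), or 1.25-fold. Leaving out 1 array at a time gave 0.24 to 0.39.

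**Figure D1:**
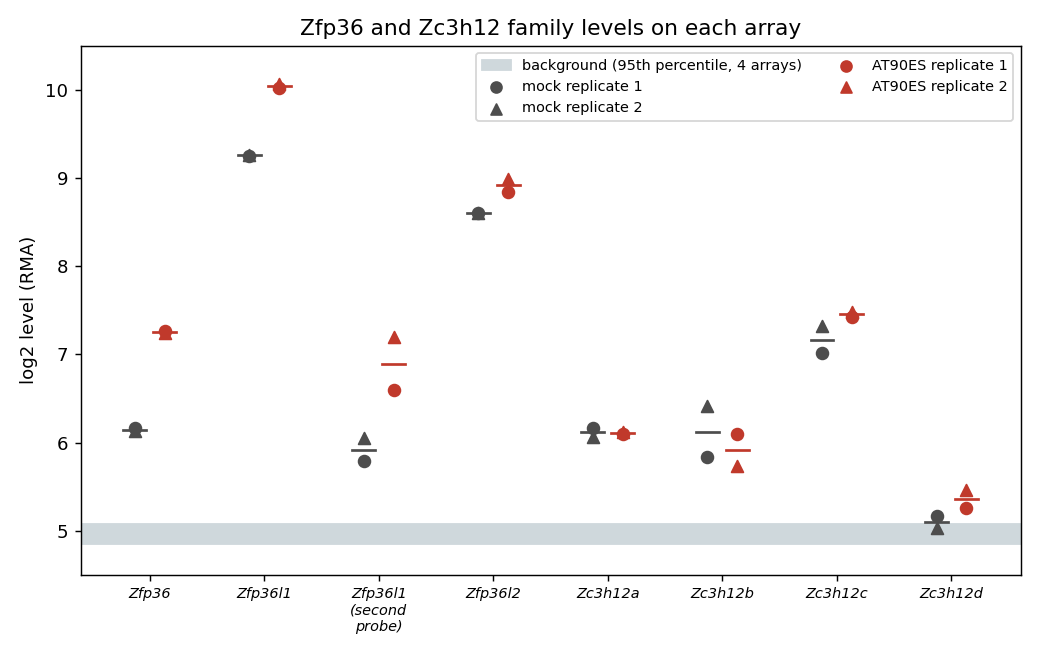
Log2 RMA level (y axis) of each family gene on each array, with mock in grey, AT90ES in red, replicate 1 as circles and replicate 2 as triangles; short lines are means of 2 arrays and the band is the background percentile over the 4 arrays (4.85 to 5.07). Both AT90ES points lie above both mock points for Zfp36, Zfp36l1 by both probes, Zfp36l2, Zc3h12c and Zc3h12d, while the points of Zc3h12a and Zc3h12b overlap.

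Zc3h12a, which encodes Regnase-1, had levels of 6.17 and 6.06 in mock and of 6.10 and 6.12 in AT90ES cells. Both AT90ES values fell inside the mock range. The log2 difference of Zc3h12a was -0.0090 ± 0.12 (SE), or 0.994-fold, and it lay between -0.06 and 0.04 in every setting. Its sign changed between settings, and no direction is given.

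Zc3h12c, a Regnase studied mainly in endothelial and myeloid cells, had levels of 7.02 and 7.32 in mock and of 7.43 and 7.48 in AT90ES cells. The gap between the groups, 0.11, was smaller than the 0.30 between the mock arrays. Its log2 difference was 0.29 ± 0.14 (SE), and it fell to 0.14 or reached 0.44 when 1 array was left out.

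Zc3h12d, also called TFL and known from lymphocytes, had levels of 5.17 and 5.03 in mock and of 5.25 and 5.46 in AT90ES cells. These levels lay near background, where a change in RNA is compressed on the log2 scale. The log2 difference was 0.26 ± 0.13 (SE), and the gap between the groups, 0.09, was smaller than the spread within either group.

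Zc3h12b, the X-linked member, had levels of 5.83 and 6.41 in mock and of 6.10 and 5.73 in AT90ES cells. The groups overlapped, and the mock arrays lay 0.58 apart. The log2 difference of -0.21 ± 0.23 (SE) ranged from -0.50 to 0.08 when 1 array was left out, so that its sign turned.

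In all, 5 of the 7 genes had both AT90ES arrays above both mock arrays, which held for 17.7% of all genes. The median log2 difference was 0.29 for the 7 genes and -0.02 for all genes. By family the medians were 0.78 for the 3 Zfp36 genes and 0.12 for the 4 Regnase genes. In limma's test over all genes, 1 of the 7, Zfp36, was among those higher in AT90ES cells at an adjusted p under 0.05, against 0.415% of all genes, and 0 of the 7 were without each of the 4 arrays in turn. Since the genes were chosen with this comparison known, nothing is read from these shares.

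**Figure D2:**
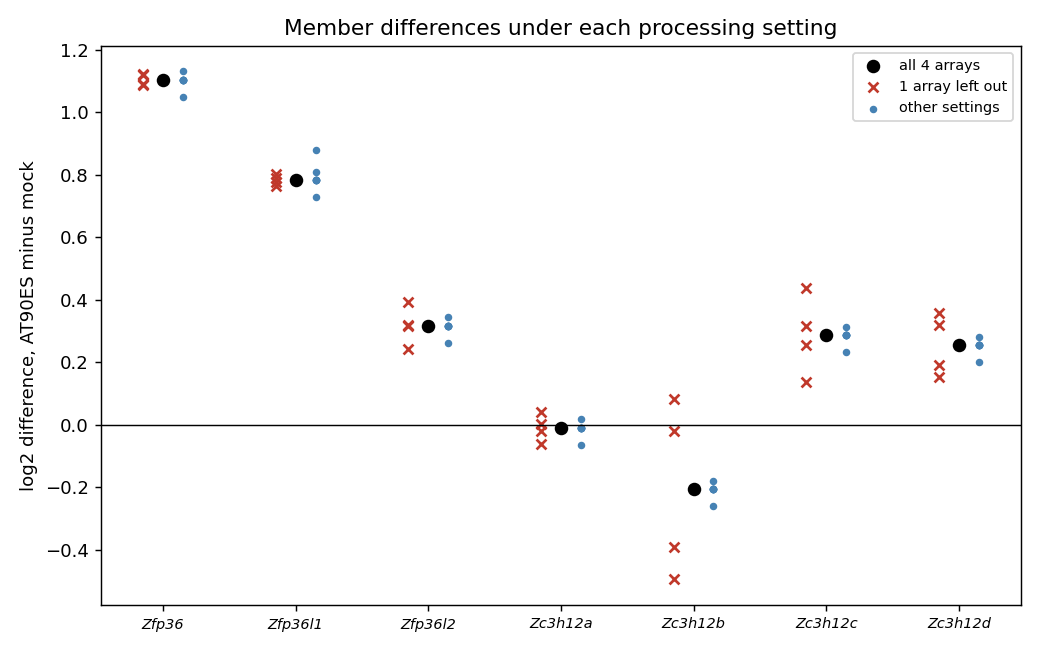
Log2 difference, AT90ES minus mock (y axis), of each family gene with all 4 arrays (black), with 1 array left out (red crosses) and in the other settings (blue points). Zfp36 stays between 1.05 and 1.13 and Zfp36l1 between 0.73 and 0.88, whereas Zc3h12b runs from -0.50 to 0.08.

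Zfp36 proteins recruit the deadenylation machinery. The list of its factors and the lists below were chosen with earlier results of these data known. Nothing is therefore read from their shares against those of all genes. Of 17 measured deadenylation factors, Btg2 alone passed limma's test over all genes, in which 0.415% of all genes were called higher. Of the 17, 0 fell and 16 did not pass. The CCR4-NOT genes Cnot1 and Cnot3 were listed but were not among those measured. The median log2 difference was 0.07 against -0.02 for all genes. Both AT90ES arrays lay above both mock arrays for 7 of the 17 and below them for 2, against 17.7% and 22.1% of all genes. Btg2, an antiproliferative protein that links mRNAs to the CCR4-NOT deadenylases, rose from 5.87 and 5.81 in mock to 8.34 and 8.47 in AT90ES cells. That is a log2 difference of 2.56 ± 0.12 (SE, adjusted p = 0.00191 by limma), 5.90-fold, and the call held in each of the 12 alternatives. Tob1, a relative of Btg2 with the same partner, stood at 0.95 ± 0.12 and missed the threshold (adjusted p = 0.0695 by limma). Tob1 passed limma with an intensity trend (adjusted p = 1.5e-05), with dim genes left out (0.016) and with arrays centred on their median (0.00913). Among the deadenylase subunits, none past the threshold, the log2 differences were Cnot7 at -0.03, Cnot8 at 0.15, Cnot6 at -0.11 and Cnot6l at -0.13.

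Of 28 measured decapping, exonuclease and exosome factors, 0 were higher and 0 lower in limma, against 1 higher and 1 lower at an unadjusted p under 0.05, and the same 0 and 0 stood in each alternative. Over all genes, 4.5% were higher and 4.59% lower at that unadjusted p. The median log2 difference was -0.08, and both AT90ES arrays lay above both mock arrays for 5 of the 28 and below them for 11. Over all genes these shares were 17.7% and 22.1%. The brightest probes were those of Ddx6, the helicase of P-bodies, at 0.20 ± 0.11 (SE), and Exosc1, an exosome cap subunit, at -0.20 ± 0.12. Xrn1, the exonuclease that degrades decapped mRNA, had the largest positive difference at 0.44 ± 0.12. Upf1, the helicase that works with Regnase-1, stood at -0.18 ± 0.11.

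Another list held 14 measured RNA-binding proteins and RNases, mainly of AU-rich or stem-loop elements. Of these, 1 rose (0.415% of all genes did), 0 fell and 13 did not pass in limma. The median was -0.02. The risen gene was Zc3hav1, the CCCH protein ZAP that binds viral RNA, at 9.18 and 9.19 in mock and 10.31 and 10.31 in AT90ES cells. Zc3hav1 is counted again among the CCCH genes below. Its log2 difference was 1.13 ± 0.11 (SE, adjusted p = 0.0286 by limma), and leaving out any 1 array ended the call (adjusted p between 1.7e-07 and 0.228 over the 12 alternatives). Arid5a, which shields mRNAs from Regnase-1, stood at 0.68 ± 0.13 (adjusted p = 0.198 by limma), with both AT90ES arrays above both mock arrays, and passed with an intensity trend (adjusted p = 0.0219 by limma). Rc3h1 and Rc3h2, the Roquin proteins that share stem-loop targets with Regnase-1, stood at 0.31 ± 0.12 and 0.07 ± 0.11, and Rc3h1 passed with an intensity trend (adjusted p = 0.045 by limma). N4bp1, an RNase of the same nuclease fold, stood at 0.37 ± 0.15. Elavl1, which stabilises AU-rich mRNAs, stood at -0.10 ± 0.11 and Hnrnpd, which binds the same elements, at -0.24 ± 0.13, neither past the threshold.

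Of 15 measured enzymes and other proteins that act on the families, 0 were higher and 0 lower in limma. At an unadjusted p under 0.05 limma gave 1 higher and 1 lower, against 4.5% and 4.59% of all genes. Both AT90ES arrays lay above both mock arrays for 4 of the 15 and below them for 4, against 17.7% and 22.1% of all genes. Mapkapk3, one of the kinases that phosphorylate Zfp36, had the largest positive difference at 0.81 ± 0.13 (adjusted p = 0.13 by limma), and it passed in the same 3 settings as Tob1. Mapkapk2, the kinase best known for inactivating Zfp36, stood at 0.02 ± 0.12. Malt1, the protease that cleaves Regnase-1 and the Roquins, stood at 0.35 ± 0.17. Usp10, a deubiquitinase reported as a partner of Regnase-1, had the most negative difference at -0.36 ± 0.12 and was called lower with an intensity trend (adjusted p = 0.0379 by limma). The genes with the brightest probes, Ywhaz and Ppp2r1a, a phosphatase subunit, stood at 0.08 and 0.02. The Cnot genes, Tob1, Xrn1, Mapkapk3 and Usp10 were named after their values were seen.

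**Figure D3:**
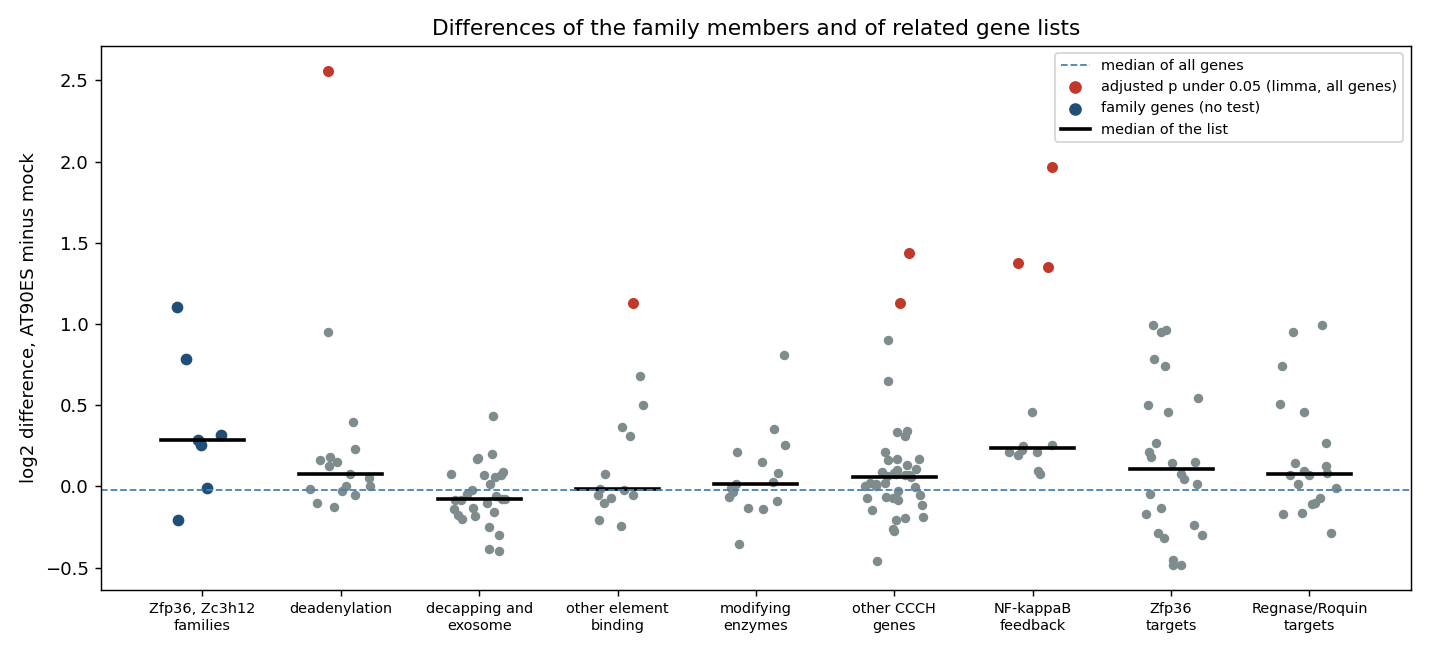
Log2 difference, AT90ES minus mock (y axis), of each measured gene in 9 lists (x axis); black bars are list medians, the dashed line is the median of all genes (-0.02), red points passed limma's adjusted p under 0.05 over all genes, and the family genes are drawn in blue without a test. Points spread sideways at random, and red points appear in the deadenylation, element binding, CCCH and NF-kappaB feedback lists only.

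Other genes with CCCH zinc fingers gave a setting for the families. Of 41 measured, 2 rose (0.415% of all genes did), 0 fell and 39 did not pass in limma, with a median log2 difference of 0.06. The pair was Zc3hav1 and Parp12, an interferon-induced ADP-ribosyltransferase, which rose by 1.44 ± 0.12 (SE, adjusted p = 0.0133 by limma) and lost its call whenever 1 array was left out (adjusted p up to 0.128). Both AT90ES arrays lay above both mock arrays for 15 of the 41 and below them for 8, against 17.7% and 22.1% of all genes. Among NF-kappaB feedback inhibitors, the class of early negative regulators to which Zfp36 is often added, 3 of 12 rose, against 0.415% of all genes. Of the 12, 0 fell and 9 did not pass, with a median of 0.24. Both AT90ES arrays lay above both mock arrays for 9 of the 12 and below them for 0. As this list too was chosen with earlier results known, nothing is read from these shares. Nfkbie rose by 1.97 ± 0.12 (adjusted p = 0.00379 by limma). Nfkb2 and Nfkbia, at 1.37 and 1.35, were the others, and both lost their calls whenever 1 array was left out.

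Of 26 measured Zfp36 targets, 0 were higher and 0 lower in limma, against 7 higher and 3 lower at an unadjusted p under 0.05 (4.5% and 4.59% of all genes), with a median log2 difference of 0.11. Of 20 targets of Regnase-1 or Roquin, 0 were higher and 0 lower, against 4 and 0, with a median of 0.07. The lists share 9 genes, and Il6, Cxcl1 and Ier3 were counted as higher at the unadjusted p in both. Of the 37 different genes in the lists, 15 lay at or under background on all 4 arrays. Those 15 included Il6, Il2, Il12b, Csf2 and Ptgs2, the classical cytokine and prostaglandin targets, so a change in them near background could go unseen.

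Il6 had levels of 2.60 and 2.60 in mock and of 3.51 and 3.17 in AT90ES cells, all under background, so no difference is given for it. Tnf, the first target found for Zfp36, had levels of 5.51 and 5.16 in mock and of 5.57 and 6.02 in AT90ES cells. The AT90ES arrays of Tnf lay just above the mock arrays, and its difference of 0.46 ± 0.20 had an adjusted p = 0.579 by limma. Cxcl1, a neutrophil chemokine, stood at 0.99 ± 0.22 (adjusted p = 0.297 by limma), with 1 of its 2 mock arrays, at 4.84, under background. Ier3, an early response gene, stood at 0.95 ± 0.23 (adjusted p = 0.339 by limma). Nfkbiz, the nuclear I-kappaB protein whose mRNA Regnase-1 cuts, stood at 0.07 ± 0.12, and Tfrc, the transferrin receptor whose mRNA it also cuts, at 0.09 ± 0.11.

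Fos, a subunit of AP-1, had levels of 5.04 and 5.25 in mock and of 5.99 and 5.88 in AT90ES cells, a log2 difference of 0.79 ± 0.13 (adjusted p = 0.16 by limma), with the lower of its mock levels under background. Myc, a transcription factor of growth, had levels of 10.04 and 9.99 in mock and of 9.48 and 9.64 in AT90ES cells, a difference of -0.45 ± 0.12 (adjusted p = 0.393 by limma). When the spread was modelled with an intensity trend, 7 of the 37 target genes were called higher by limma and 2 lower, against 1.94% and 0.73% of all genes in that setting. The 7 were Cxcl1, Lif, Ier3, Fos, Vegfa, Rel and Plk3 and the 2 were Myc and Ccnd1, several of them named here after their values were seen.

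**Figure D4:**
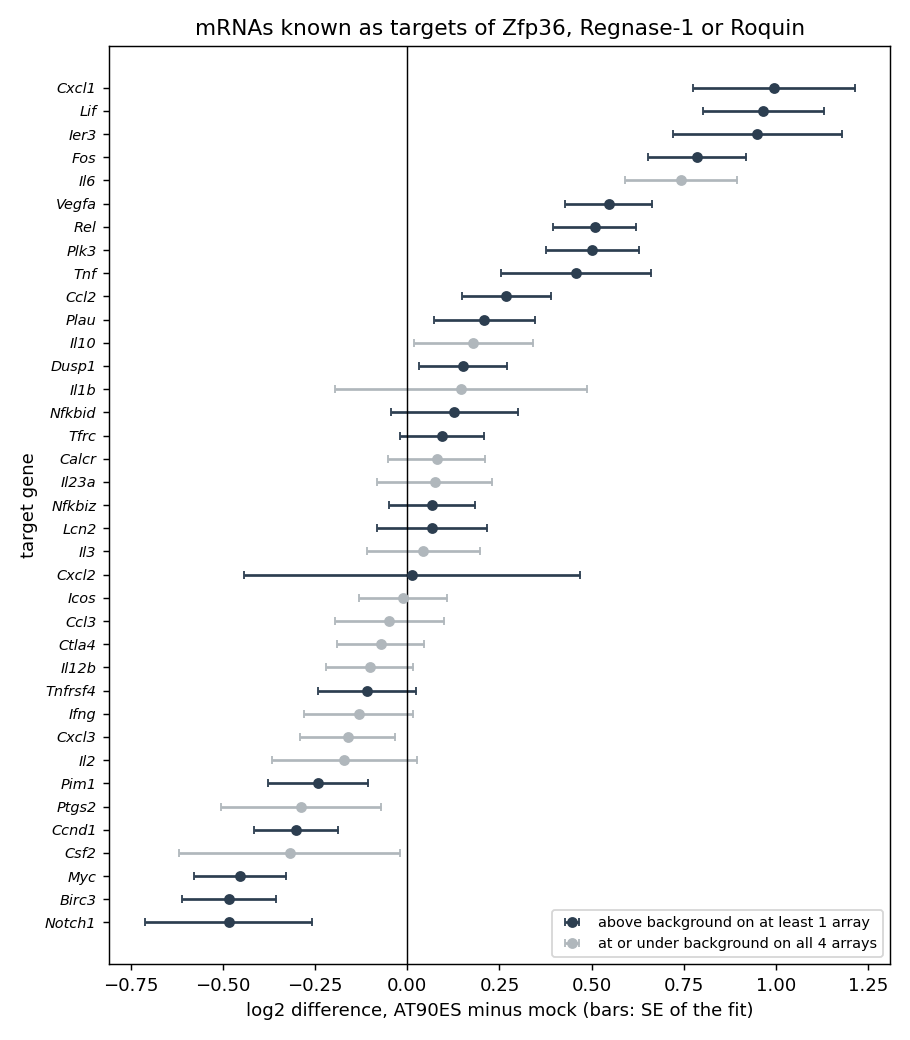
Log2 difference, AT90ES minus mock (x axis), of 37 mRNAs known as targets of Zfp36, Regnase-1 or Roquin (y axis), with the standard error of the fit from 2 arrays a group; grey points lay at or under background on all 4 arrays (15 genes). The differences run from -0.48 for Notch1 to 0.99 for Cxcl1, which was under background on 1 mock array, and none passed limma's adjusted p under 0.05 over all genes.

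The genes most like Zfp36 over the 4 arrays were found by the Euclidean distance between log2 values centred on each gene's mean. The 5 nearest were Zc3hav1 (distance 0.04), Susd6 (0.05), Phlda3 (0.08), Ercc5 (0.09) and the pseudogene Tmem229b-ps (0.10). Susd6 and Phlda3 are known p53 targets and Ercc5 is a nuclease of DNA repair. The 5 nearest to Zfp36l1 were Ube2l6 (0.04), the conjugating enzyme of Isg15, Relb (0.05), an NF-kappaB subunit, Klhl24 (0.06), Noct (0.06), a protein of the deadenylase fold, and Cilk1 (0.06). These genes shared the size of the difference and the small spread within groups over 4 arrays, which says nothing on shared control.

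Markers of the labelled cell type were present. Of 8 pigment cell markers, 8 lay above background on both arrays of a group, with Dct at 12.94 and 12.88 in mock and 12.92 and 12.83 in AT90ES cells. Mitf, the transcription factor of the pigment lineage, had levels of 10.33 and 10.40 in mock and of 10.02 and 10.02 in AT90ES cells, a log2 difference of -0.34 ± 0.11 (SE, adjusted p = 0.469 by limma), and was the 1 pigment marker lower at an unadjusted p under 0.05. Its part in the family genes' differences was not tested. Of 10 myeloid markers 4 lay above background, of 9 lymphocyte markers 1 and of 10 fibroblast and endothelial markers 7. By the same rule 12608 of all 22180 genes did. The mean log2 level of the myeloid list was 4.60 to 4.79 over the arrays, that of the lymphocyte list 4.40 to 4.54 and that of the fibroblast and endothelial list 4.86 to 5.01. Ptprc, the marker common to blood cells, lay under background on all 4 arrays, and 0 markers of these 3 lists passed limma's test. At an unadjusted p under 0.05, 1 myeloid and 1 lymphocyte marker were lower, as were 4.59% of all genes. Across genes, which are not independent replicates, the mock pair had a Pearson's r of 0.992 and the AT90ES pair one of 0.993.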

How the data were processed

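Of each of the 4 RNA samples, 300 ng was labelled for an Affymetrix gene array, per the labels' protocols. The authors deposited log2 values, which the submitters' processing notes credit to RMA (background correction, quantile normalization and a summary per probe set), with software, version and settings not given in the sources used here. Such normalization removes any change common to all genes. For arrays, their number limits the precision.

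Of 41345 probes, 23521 had 1 gene symbol in the platform annotation, 1814 had several and 16010 had none. The latter kinds named no gene. The brightest probe stood for a gene. Symbols of 7 of 7 family genes matched RefSeq by gene ID, and promoter sequences are those of RefSeq, GRCm38.p6.

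The groups were compared with limma 3.58.1 (R 4.3.3, lmFit and eBayes, no covariate), two-sided, with Benjamini-Hochberg adjustment over 22180 genes and a threshold of 0.05. The fit had 2 residual degrees of freedom, to which sharing across genes added 3.70. An exact permutation test of 2 against 2 arrays cannot pass the threshold. On simulated data with 22180 genes and 200 changed 2-fold, in 10 runs, 96.0% were recovered. False calls made up 7.83% of all calls, more than the nominal share. The simulated noise was Gaussian, with variances that limma had already drawn together across genes. Such spreads are more alike than the real ones, so the real fit may find fewer 2-fold changes than 96.0%. A gene not called here may therefore have changed 2-fold.

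The members and lists were chosen with earlier results of these data known, so nothing is read from the share called in any of them. Named in each list were up to 6 genes past the threshold, or otherwise the 2 with the highest mean level, besides direct partners and classical targets chosen whatever their values, and the 5 genes nearest in pattern to each of 2 members. Other genes were named after their values were seen. Family genes were left out of the counts of other lists. Same-numbered arrays did not deviate together: the correlation of their deviations from the group means was -0.22, so the replicate numbers were not taken as pairs.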

Additional observations from a re-analysis of the deposited data

How the results depend on the processing

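The median log2 difference of the 7 family genes stayed within 1 SD in 12 of 12 alternatives (0.23 to 0.36). For single family genes 78 of 84 values moved by less than the spread between replicates, but most of these could not have moved by more. Settings that change only the error model or the set of features tested leave every difference as it was. With 2 arrays a group, leaving 1 out cannot shift a gene's difference beyond that spread. The 6 values that moved by more came from centring or probe averaging: Zfp36 in 2 settings, Zfp36l1 in 3 and Zc3h12a in 1. Family genes past the threshold, 1 with all arrays, numbered 2 with arrays centred on their median, with dim genes left out and with an intensity trend, where Zfp36l1 joined Zfp36, and 0 with every probe tested separately, with the replicate block and without each array. Genes called higher over all genes, 92, numbered 172 with arrays centred on their median, 181 with dim genes left out, 30 with every probe tested, 431 with an intensity trend, and 32 to 47 without 1 array. Genes called lower, 0, numbered 4, 15 and 162 with arrays centred on their median, dim genes left out and an intensity trend. Of the 159 other genes of the decay lists, 6 were called higher, against 10 with arrays centred on their median, 2 with every probe tested, 19 with an intensity trend and 2 without any 1 array. With an intensity trend 3 were lower. Over all genes, the settings with fewer arrays, fewer residual degrees of freedom or more features tested called fewer genes higher. The causes of the changes in count were not tested. The replicate block called 85 genes higher. Because the correlation of same-numbered arrays was -0.22, a crossed replicate block was added after seeing the data, which called 59 genes higher, 0 family genes and 3 decay genes. For named genes, 432 of 464 values kept their side of the threshold, 23 lost it and 9 gained it, and 0 reversed. Only 6 of the named genes were called with all arrays, and the others had no call to lose. The 23 lost values belonged to Nfkb2, Nfkbia and Zc3hav1 (6 of 12 alternatives each) and Parp12 (5 of 12). Btg2 and Nfkbie lost none. Centring on the reference genes moved the median of all genes from -0.02 to -0.08. The 10 reference genes were Actb, Gapdh, Hprt, Tbp, Ywhaz, Sdha, Gusb, Pgk1, Tfrc and Rplp0. Of these, Tfrc also stands in the target list of Regnase-1 or Roquin and Ywhaz in that of proteins acting on the families. Genes near background, Zc3h12d among them, are limited by signal over background.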

Other observations

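Zfp36l3, a rodent paralog of the Zfp36 family known from placenta and not among the 7 genes, lay under background on each array, with log2 levels of 4.60 and 4.54 in mock and of 4.57 and 4.44 in AT90ES cells. Khnyn, an RNase that works with the product of Zc3hav1, had levels of 5.05 and 4.83 in mock and of 5.37 and 5.51 in AT90ES cells, above background only in the latter. It was named after its values were seen, and no difference against the mock arrays is read from them.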
